A study of Mus musculus with 8 samples.

Results

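The heat shock proteins and co-chaperones of the cytosol and the mitochondrial matrix, together with the CCT chaperonin, were followed in mouse macrophages given an amyloid-forming peptide. The set was a list of 36 genes, and every array probe whose platform gene symbol, old or updated, was on the list was taken. Of the 16593 genes named on the array, 33 were members, and they were read by 46 of its 25697 probes. Hspa1b, Hsp90ab1 and Hsf1 were matched to no probe and were not analysed here. RNA came from bone marrow-derived macrophages of C57BL/6 mice, grown for 7 days in medium with 10% serum and 15% L929-conditioned medium and kept without the conditioned medium for 12 hours. The human IAPP group was 4 wells of a 24-well plate given human IAPP (islet amyloid polypeptide, the beta-cell hormone amylin) for 12 hours, and the rat IAPP group was 4 wells given rat IAPP for the same time. Human IAPP readily assembles into amyloid, whereas rat IAPP has a different sequence and is the control peptide here. The titles give 15 µM for both peptides, although the treatment protocol writes the same figure in millimolar. Since the labels name neither separate animals nor separate cultures, the p-values here reflect well-to-well variation only, part of which could be technical. No well without peptide was among the samples, and less RNA per cell cannot be told apart from fewer cells.

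Heat shock proteins bind unfolded stretches of other proteins and help them to fold. HSP70 works with J-domain proteins, which deliver clients and start its ATP cycle, and with exchange factors such as HSP110 and BAG proteins, which release them. HSP90 takes partly folded clients, often handed over from HSP70 by the linker protein STIP1. CCT is a double ring of different subunits that folds actin and tubulin, and HSP60 with its lid HSP10 does comparable work in mitochondria. Many of these genes are driven by the heat shock factor HSF1, which binds repeated GAA units, the heat shock element.

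On these arrays all 8 measured macrophage marker genes, such as Adgre1, Cd14 and Lyz2, were detected in all 8 wells, and no T, NK or B cell marker was detected in any. The summed linear intensity of the macrophage list lay between 144953 and 147904 in human IAPP wells, against 131759 to 138344 in rat IAPP wells. Of the 8 genes, Cd14 was called higher (0.62), and Adgre1 (-0.47), Fcgr1 (-1.63) and Mertk (-1.18) were called lower, and their part in the results was not tested. The summed neutrophil markers were at 2007 to 2963 in human IAPP wells and 2250 to 2620 in rat IAPP wells. S100a8 was detected in all wells and was not called (-0.05). S100a9, Ngp and Mpo were detected in no well and Camp in 1. Elane was dim, detected in 4 of the 8 wells, and was called higher (0.44). Mean deposited signal ran from 1144 to 1368 units on the human IAPP arrays, against 1180 on rat IAPP array 4 and 1523 to 1967 on the other rat IAPP arrays. Levels below are log2 intensities after background correction and quantile normalisation, so a rise or fall is relative to the other genes of the same array. Rat IAPP array 4 also correlated less with the other rat IAPP arrays, at 0.985 to 0.990, than those did among themselves, at 0.994 to 0.996. The part of array brightness in the results was not tested, and values without rat IAPP well 4 are given where they change a call or a value by much.

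The listed chaperone genes were mostly higher with human IAPP, and by modest amounts. The list was chosen with earlier results of these data known. Chaperone genes outside it, given below, were called higher about as often as all genes. With the arrays scaled to a common median, 2 of 29 tested members were still called higher, beside 6.6% of all genes. The probes of 29 members passed the filter, detection in at least 4 of the 8 wells; each of them was detected in at least 3 human IAPP wells and 2 rat IAPP wells. At an adjusted p under 0.05 (limma, Benjamini-Hochberg over 7809 genes), 16 members rose, 2 fell and 11 were not called. Over all genes, 23.8% were called higher and 32.5% lower, together 56.4%. The median log2 difference, human minus rat IAPP, was 0.44 over the 29 members and -0.06 over all genes. In 16 members every human IAPP well lay above every rat IAPP well, and in 2 every human IAPP well lay below; over all genes these shares were 21.6% and 29.7%. Rises ran from 1.18-fold for Bag3 to 2.01-fold for Hspa4. By class, the HSP70 system had 7 of 10 tested members higher and 1 lower, the HSP90 system 4 of 7 higher, CCT with prefoldin 3 of 7 higher and 1 lower, and the mitochondrial chaperones 2 of 4 higher. The class medians were 0.57, 0.45, 0.31 and 0.21 on the log2 scale, and the classes were not tested against each other. Each gene was read by its brightest probe over the wells of both groups, a choice that a rise can sway. For Dnajb6 and Dnajb4, counted as risers of the HSP70 system, another probe was brighter in rat IAPP wells. Its rat IAPP means were 10.73 against 10.53 and 6.71 against 6.16, and it was not called. With the mean over the probes of a gene, 15 members were called higher, beside 24.5% of all genes.

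**Figure D1:**
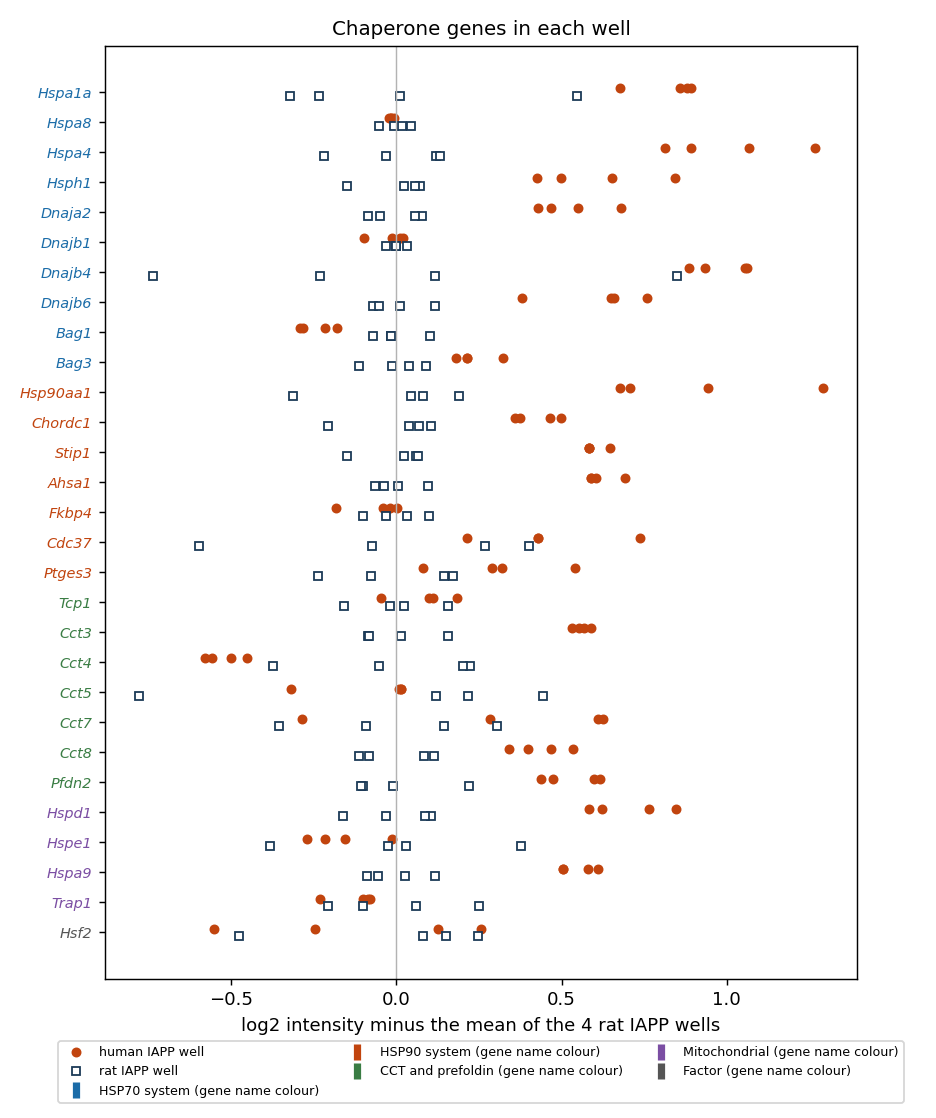
Each row is a chaperone gene and each symbol a well; the x axis is the log2 intensity minus the mean of the 4 rat IAPP wells. Filled circles are human IAPP wells, open squares rat IAPP wells, and name colours give the class. The human IAPP wells of 16 genes, among them Hspa4, Stip1 and Hspd1, lie to the right of all rat IAPP wells, and those of Cct4 and Bag1 lie to the left.

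The heat shock element was looked for in the promoters, since several members moved together; binding of a factor was not measured. RefSeq windows of GRCm38.p6, from 250 bases before to 50 after the annotated start, were on hand for 30 of the 36 members. The motif was 3 alternating units, GAA, TTC and GAA, with any 2 bases between neighbours, searched on both strands with overlaps allowed. It was found for 5 of the 30 members and for 0.662% of 27025 genes. These were 4 of the 14 risers with a window, Hsph1, Dnajb6, Chordc1 and Hspd1, and 1 of 10 members that were not called, Hspe1. The weaker motif of 2 facing units, GAANNTTC or TTCNNGAA, which is part of the longer one, was found for 15 of 30 members and for 4587 of the 27025 genes. By call, these 15 were 7 of the 14 risers, 4 of the 10 members not called and 4 of 5 not tested. The 1 member with a window that fell had no match. A match is a run of letters and not a bound site, and a missing match says nothing of the factor. The 4 stretches that hold the longer motif are shown because they belong to members discussed below, with the motif in capitals and at most 30 bases after the start.
Chordc1, chr9:18292233-18292296, plus strand: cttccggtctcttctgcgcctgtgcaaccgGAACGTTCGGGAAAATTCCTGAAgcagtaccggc
Dnajb6, chr5:29735822-29735894, plus strand: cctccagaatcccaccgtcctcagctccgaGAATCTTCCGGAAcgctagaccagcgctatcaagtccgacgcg
Hsph1, chr5:149636286-149636330, minus strand: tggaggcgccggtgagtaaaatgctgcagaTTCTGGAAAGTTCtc
Hspe1 and Hspd1, chr1:55088029-55088106, plus strand as read for Hspe1: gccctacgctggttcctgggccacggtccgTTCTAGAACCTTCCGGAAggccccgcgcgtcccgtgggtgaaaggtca
The Chordc1 run holds 3 overlapping copies at positions -4 to 18 from the annotated start. In Dnajb6 the motif lies at positions -46 to -34 and in Hsph1 at 15 to 27, each counted from 1 of 2 annotated starts. In both genes the windows of both starts held a match. The last stretch serves 2 genes that face away from each other. Of the 2 annotated starts of Hspd1, 1 has the motif in its window, which shares 285 of 300 bases with that of Hspe1. Counted from the annotated start, the 2 overlapping copies in the stretch span positions -89 to -72 for Hspe1. From that start of Hspd1, on the minus strand, they span -144 to -127.

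In the HSP70 system the 2 tested exchange factors of the HSP110 type and the inducible HSP70 gene rose, whereas the constitutive HSP70 gene was not called. Hspa4, an HSP110-type exchange factor, had log2 intensities of 9.37, 9.29, 9.54 and 9.74 in human IAPP wells, against 8.44, 8.25, 8.59 and 8.61 in rat IAPP wells. The groups were well apart, and the difference of 1.01 (SE 0.12, n = 4 per group, limma adjusted p = 8.6e-05) was the largest among the members, 2.01-fold. Size and rank depended on the processing. Without background correction the Hspa4 difference was 0.63, below Hspd1 at 0.67. With the authors' rescaled signals it was 0.64, below Hspa9 at 0.86. Another Hspa4 probe was not detected in any well. Hsph1, the other tested HSP110-type gene and one of those with the element, had 10.31, 10.24, 10.66 and 10.47 in human IAPP wells, against 9.83, 9.66, 9.88 and 9.87 in rat IAPP wells. It rose 1.52-fold (log2 difference 0.60, SE 0.10, adjusted p = 0.00083).

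Hspa1a, the stress-inducible HSP70 gene, was dim, at 7.43, 7.46, 7.45 and 7.25 in human IAPP wells, against 7.12, 6.34, 6.58 and 6.25 in rat IAPP wells. The highest rat IAPP well came close to the lowest human IAPP well, and the log2 difference was 0.83 (SE 0.17, adjusted p = 0.0026), 1.77-fold. The Hspa1a signals before normalisation were 387.1 to 447.6 units in human IAPP wells and 368.5 to 471.5 units in rat IAPP wells. Those ranges overlap. The difference was still called without background correction and with the authors' rescaled signals, but was smaller, at 0.24 in both. With median scaling it was 0.44 and not called (limma adjusted p = 0.13). Hspa1b is a near-identical copy, so this probe may read both genes. Hspa8, the constitutive HSP70 gene, stayed together at 15.71, 15.70, 15.69 and 15.70 in human IAPP wells, against 15.71, 15.73, 15.76 and 15.66 in rat IAPP wells. Its log2 difference was -0.02, with a 95% confidence interval from -0.15 to 0.12 and a limma adjusted p of 0.84. This probe is very bright, with a deposited signal of up to 53351 units in human IAPP wells and 64977 in rat IAPP wells; the highest signals on the arrays were 66641 to 68673 in human IAPP wells and 68915 to 69744 in rat IAPP wells. A second, less bright Hspa8 probe gave -0.13 (SE 0.10, adjusted p = 0.30). With the authors' rescaled signals the gene turned to 0.37 (adjusted p = 0.0093). Hspa4l, another HSP110-type gene, was detected in no human IAPP well and 1 rat IAPP well and was not tested.

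J-domain genes split between probes as well as between genes. Dnaja2, a general HSP70 partner, had 9.22, 9.14, 9.35 and 9.10 in human IAPP wells, against 8.75, 8.73, 8.62 and 8.59 in rat IAPP wells, and rose 1.45-fold (log2 difference 0.53, SE 0.080, adjusted p = 0.00039). A second, dimmer Dnaja2 probe, detected in all wells, overlapped between groups and was not called (0.34, SE 0.17, limma adjusted p = 0.13). Dnajb6, a strong suppressor of polyglutamine and amyloid aggregation in cell models, had 11.18, 10.91, 11.19 and 11.29 in human IAPP wells, against 10.46, 10.48, 10.54 and 10.65 in rat IAPP wells. The log2 difference of this probe was 0.61 (SE 0.094, adjusted p = 0.00045), 1.53-fold. Another Dnajb6 probe of nearly the same brightness overlapped between groups, at 10.91, 10.71, 10.60 and 10.93 in human IAPP wells, against 10.82, 10.74, 10.66 and 10.69 in rat IAPP wells. The rise of Dnajb6 therefore holds for 1 of its 2 probes, and which transcripts each probe reads is not given in the sources used here. Dnajb1, the HSP40 that is classically heat-inducible, overlapped between the groups, at 12.29, 12.29, 12.18 and 12.26 in human IAPP wells, against 12.28, 12.28, 12.31 and 12.24 in rat IAPP wells. Its log2 difference was -0.02, with a confidence interval from -0.16 to 0.12 (adjusted p = 0.80). With the authors' rescaled signals it turned to 0.16 (adjusted p = 0.017).

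The probes of Dnajb4 disagreed in direction. Its brightest probe had 7.05, 7.22, 7.23 and 7.10 in human IAPP wells, against 7.01, 5.93, 6.28 and 5.43 in rat IAPP wells, of which only 2 were detected. The highest rat IAPP well lay just under the lowest human IAPP well, and the log2 difference was 0.98 (SE 0.28, adjusted p = 0.013). A second probe ran the other way, at 6.34, 6.23, 5.72 and 6.72 in human IAPP wells, against 6.73, 6.69, 6.69 and 6.72 in rat IAPP wells, a difference of -0.46 (SE 0.18, adjusted p = 0.052). Without human IAPP well 3 this second probe became the brightest, and the gene stood at -0.28 with an adjusted p of 0.077. The 2 probes of Dnaja1, the main cytosolic type I J-domain gene, were detected in at most 1 rat IAPP well and no human IAPP well.

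The 2 BAG-domain genes, whose products bind HSP70 and speed up nucleotide release, moved in opposite directions by small amounts. Bag3, which links HSP70 to autophagy of misfolded proteins, had 12.97, 12.97, 12.94 and 13.08 in human IAPP wells, against 12.84, 12.74, 12.79 and 12.64 in rat IAPP wells. Bag1, which links HSP70 to the proteasome, had 13.85, 13.84, 13.92 and 13.95 in human IAPP wells, against 14.12, 14.06, 14.12 and 14.23 in rat IAPP wells. Neither gene's groups overlapped. The log2 difference was 0.23 for Bag3 (SE 0.073, adjusted p = 0.021) and -0.24 for Bag1 (SE 0.069, adjusted p = 0.014). The Bag3 call was lost without human IAPP well 4 or rat IAPP well 2 (adjusted p up to 0.060). The Bag1 call was lost with median scaling (adjusted p = 0.082), cyclic loess (0.063) and no filter on dim probes (0.053), and its difference turned to 0.06 with the authors' rescaled signals (adjusted p = 0.52). Bag3 was also lost without the filter (adjusted p = 0.072) and with the replicate number as a block (0.064).

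In the HSP90 system the linker STIP1 and the ATPase activator AHSA1 moved most evenly. Stip1 had 11.64, 11.64, 11.64 and 11.70 in human IAPP wells, against 11.08, 10.91, 11.11 and 11.12 in rat IAPP wells. It rose by a log2 difference of 0.60 (SE 0.073, adjusted p = 1.0e-04). Ahsa1 had 11.34, 11.25, 11.24 and 11.24 in human IAPP wells, against 10.61, 10.66, 10.58 and 10.75 in rat IAPP wells, a difference of 0.62 (SE 0.069, adjusted p = 5.7e-05). In both genes the gap between the groups was larger than the range within either group. Chordc1, an HSP90-binding protein and one of the genes with the heat shock element, had 11.80, 11.78, 11.89 and 11.92 in human IAPP wells, against 11.53, 11.46, 11.49 and 11.22 in rat IAPP wells. It rose 1.34-fold (log2 difference 0.42, SE 0.086, adjusted p = 0.0024).

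Hsp90aa1, the inducible HSP90 gene, had 7.56, 7.59, 7.83 and 8.18 in human IAPP wells, against 6.96, 7.07, 6.57 and 6.93 in rat IAPP wells. The log2 difference of 0.90 (SE 0.16, adjusted p = 0.00084) corresponds to 1.87-fold. This probe was dim, however. Before normalisation its signals were 460.5, 437.2, 492.3 and 481.2 units in human IAPP wells, against 437.3, 468.4, 469.5 and 401.2 units in rat IAPP wells, and those ranges overlap. Undetected probes had medians of 291 to 318 units on the human IAPP arrays and 309 to 350.5 units on the rat IAPP arrays. A second Hsp90aa1 probe was not detected in any well. The rise was called in all 22 alternatives, with log2 differences from 0.32 to 0.99; the smallest values came without background correction and with the authors' rescaled signals.

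The other HSP90 partners were not called. Fkbp4, an immunophilin of steroid receptor complexes, lay between 10.81 and 10.997 in human IAPP wells, against 10.89 to 11.09 in rat IAPP wells. Its log2 difference was -0.06, with a confidence interval from -0.23 to 0.11 (adjusted p = 0.52). Cdc37, which brings kinases to HSP90, gave 0.45 (SE 0.21, adjusted p = 0.090), with human IAPP wells between 7.13 and 7.66, against 6.32 to 7.32 in rat IAPP wells. Ptges3, the p23 co-chaperone, gave 0.31 (SE 0.12, adjusted p = 0.057) and was called in 10 of its 22 alternatives.

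Within the CCT ring the subunits did not move together. Cct3 had 12.39, 12.37, 12.34 and 12.36 in human IAPP wells, against 11.82, 11.72, 11.72 and 11.96 in rat IAPP wells, a log2 difference of 0.56 (SE 0.075, adjusted p = 0.00019). Over all tested probes, 24.5% were called higher and 29.9% lower. A second Cct3 probe gave 0.90 (SE 0.091, adjusted p = 3.4e-05), so both probes were higher in all human IAPP wells. Cct8 had 12.54, 12.66, 12.59 and 12.73 in human IAPP wells, against 12.31, 12.28, 12.11 and 12.08 in rat IAPP wells, and rose by 0.44 (SE 0.082, adjusted p = 0.0015). Cct4 was the other way round, at 12.83, 12.72, 12.78 and 12.70 in human IAPP wells, against 13.51, 13.23, 13.49 and 12.91 in rat IAPP wells. It fell by 0.52 on the log2 scale (SE 0.13, adjusted p = 0.0066). Rat IAPP well 4 lay nearest to the human IAPP wells, which were all below it by a mean of 0.15, and without that well the difference was -0.65. The fall was called whichever single well was left out (adjusted p up to 0.019).

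Tcp1, the founding subunit, gave 0.09 (SE 0.088, adjusted p = 0.42) on its brightest probe, with overlapping wells. On a second probe the human IAPP wells lay between 9.02 and 9.40, against 8.43 to 9.02 in rat IAPP wells, and the difference of 0.35 just missed the threshold (adjusted p = 0.056). Cct5 and Cct7 were dim and widely spread. For Cct5 the human IAPP wells lay between 6.96 and 7.29, against 6.50 to 7.72 in rat IAPP wells; its lowest rat IAPP well was well 4, and without that well the difference was -0.33 (adjusted p = 0.033). For Cct7 they lay between 5.70 and 6.61, against 5.63 to 6.29 in rat IAPP wells (difference 0.31, SE 0.21, adjusted p = 0.25), and without human IAPP well 1 the difference was 0.52 (adjusted p = 0.029). Cct2 was detected in no human IAPP well and 1 rat IAPP well. Pfdn2, a subunit of prefoldin, which hands actin and tubulin chains to CCT, had 12.58, 12.45, 12.60 and 12.42 in human IAPP wells, against 11.88, 11.97, 11.88 and 12.20 in rat IAPP wells. It rose by 0.53 on the log2 scale (SE 0.092, adjusted p = 0.00089).

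In mitochondria the HSP60 and HSP70 genes rose, whereas the HSP10 and TRAP1 genes were not called. Hspd1, the HSP60 gene, had 12.64, 12.68, 12.91 and 12.83 in human IAPP wells, against 12.17, 12.15, 12.03 and 11.90 in rat IAPP wells, a difference of 0.70 (SE 0.092, adjusted p = 0.00015). Its second probe gave 0.91 (SE 0.16, adjusted p = 0.0012). Hspa9, the mitochondrial HSP70 (mortalin), had 14.61, 14.61, 14.69 and 14.72 in human IAPP wells, against 14.14, 14.05, 14.23 and 14.02 in rat IAPP wells. It rose by 0.55 (SE 0.073, adjusted p = 0.00018), and by 0.79 on a second probe (SE 0.082, adjusted p = 4.3e-05). Both genes were thus higher on each of their 2 probes. Hspe1, the HSP10 gene that shares its promoter with Hspd1, had 10.13, 10.19, 10.39 and 10.25 in human IAPP wells, against 10.78, 10.44, 10.38 and 10.02 in rat IAPP wells. These groups overlap, and the difference was -0.16 (SE 0.14, adjusted p = 0.36). Trap1, the HSP90 of mitochondria, had 10.16, 10.14, 10.17 and 10.01 in human IAPP wells, against 10.04, 10.30, 10.14 and 10.50 in rat IAPP wells (difference -0.12, SE 0.10, adjusted p = 0.33). Without rat IAPP well 4, its highest, the difference was -0.04 (adjusted p = 0.69).

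Partners that differed in their call were also set against each other within each array, which removes the array's overall scale. The 3 pairs were chosen after their values were seen. The log2 ratio of Hspd1 to Hspe1 was 2.51, 2.50, 2.52 and 2.58 in human IAPP wells, against 1.38, 1.71, 1.65 and 1.88 in rat IAPP wells. The ratio of these divergently transcribed genes was higher in human IAPP wells by 0.87 on the log2 scale. The ratio of Cct8 to Cct4 was -0.30, -0.06, -0.19 and 0.03 in human IAPP wells, against -1.20, -0.95, -1.37 and -0.83 in rat IAPP wells, a change of 0.96. For Bag3 to Bag1 it was -0.88, -0.87, -0.98 and -0.88 in human IAPP wells, against -1.28, -1.32, -1.33 and -1.59 in rat IAPP wells, a change of 0.48. In each pair the groups did not overlap. These values are a description with no test, since the pairs were picked because their partners differed in call. Different probes respond differently, so only the change of a ratio and not its level can be read, and probes of Hspd1, Hspe1 and Hspa8 may also read related gene copies.

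The heat shock factor Hsf2 was dim, with human IAPP wells between 7.03 and 7.83 and rat IAPP wells between 7.10 and 7.83 (difference -0.10, SE 0.21, adjusted p = 0.69). Hspb1, the small heat shock protein HSP27, was not detected in any well, with deposited signals of 253.2 to 305.5 units in human IAPP wells and 302.8 to 353.7 units in rat IAPP wells.

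**Figure D2:**
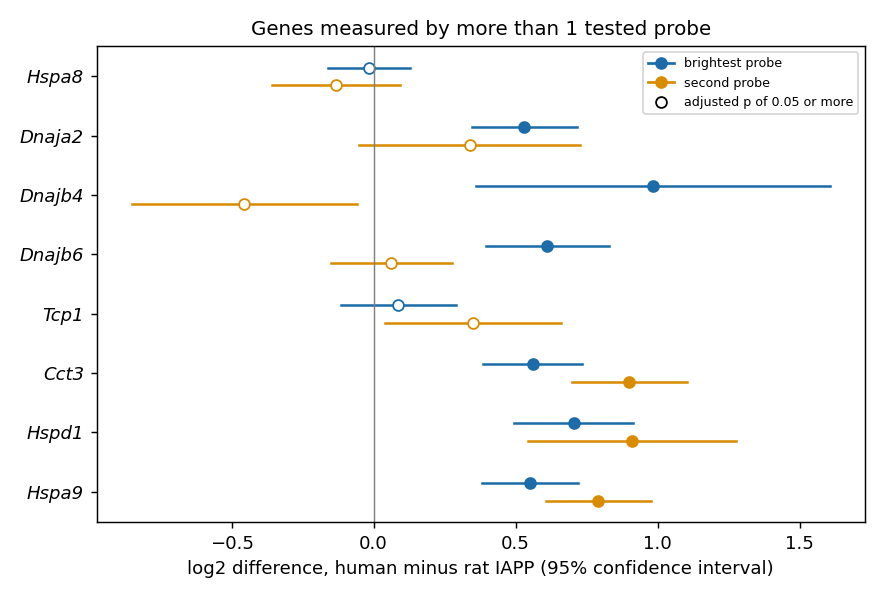
Log2 difference, human minus rat IAPP, with its 95% confidence interval for the 8 genes that 2 tested probes measured. Filled symbols have an adjusted p under 0.05. The probes of Cct3, Hspd1 and Hspa9 lie on the same side of 0 and pass, those of Dnajb4 lie on opposite sides, and for Dnaja2 and Dnajb6 only the brighter probe passes.

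How far the rises reach depends on the scale given to the arrays. When each array was scaled to a common median in place of quantile normalisation, the median of all genes moved to -0.40. Of the 29 members, 2 were still called higher, Hspa4 and Hsp90aa1 (limma adjusted p = 0.039 and 0.042), beside 6.6% of all genes. On that scale Bag3 stood at -0.04, Ptges3 at -0.10 and Tcp1 at -0.17. Measured from the median of all genes, the members' median changed little between these 2 scalings. It lay 0.49 above under both, and 22 of 29 members lay above under both. Single members moved by different amounts, some by more. From quantile normalisation to median scaling, Hspa8 went from 0.04 to 0.27, Cct7 from 0.36 to 0.55 and Hspa9 from 0.61 to 0.78. Other steps mattered more for the members' median. The members' median lay 0.28 above that of all genes without background correction and 0.29 above it with the authors' rescaled signals. With the mean over the probes of a gene it lay 0.39 above. From that reference Hspa4 stood at 1.06 with quantile normalisation and 0.97 with median scaling, Hspd1 at 0.76 and 0.81, Stip1 at 0.65 and 0.63, and Cct4 at -0.47 and -0.38. Without rat IAPP well 4, the array that stood apart within its group, the same 16 members were called higher and 3 were called lower.

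**Figure D3:**
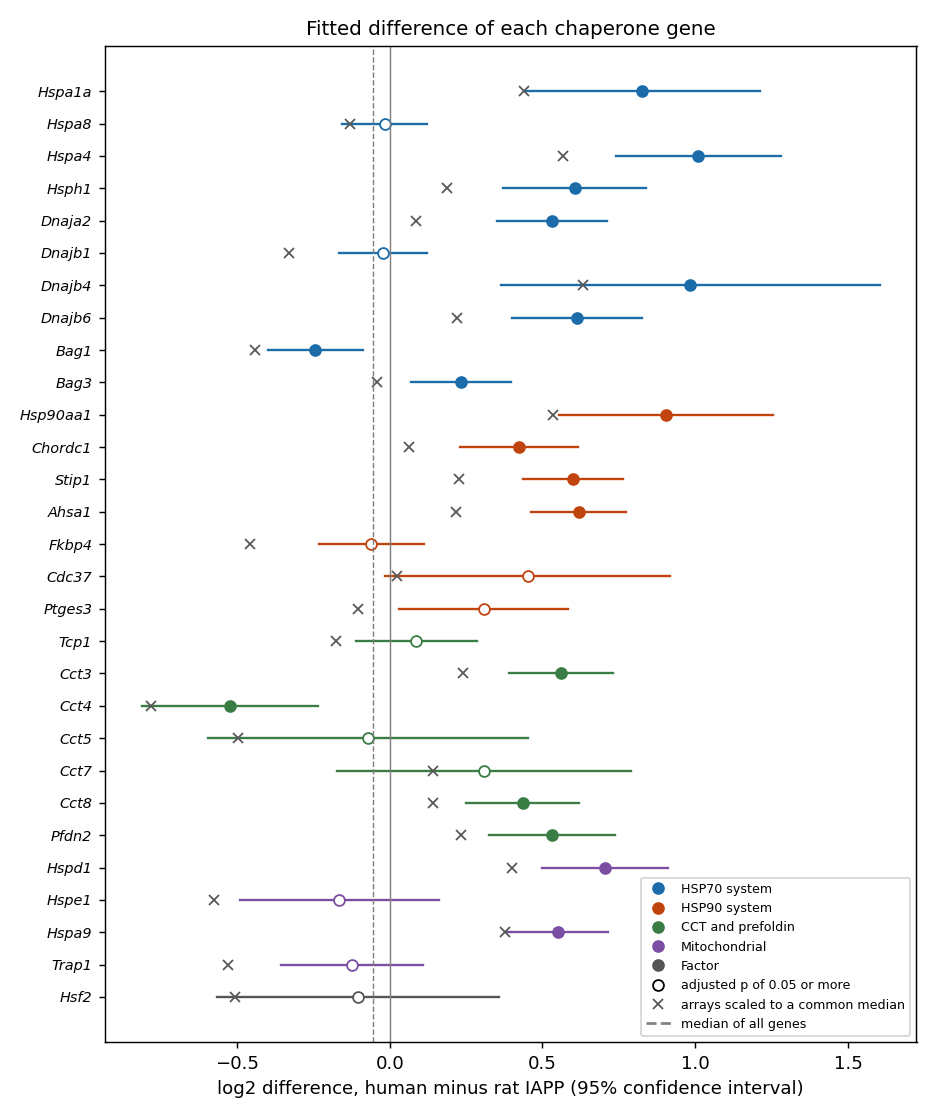
Fitted log2 difference, human minus rat IAPP, of each member with its 95% confidence interval, coloured by class; filled circles have an adjusted p under 0.05. Crosses give the difference with the arrays scaled to a common median, which lies lower for each of the 29 members, and the dashed line is the median of all genes at -0.06.

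Chaperone genes outside the list were called higher about as often as all genes. Of 76 further co-chaperones and chaperones, 51 could be tested, of which 13 (25.5%) were higher and 11 (21.6%) lower, beside 23.8% and 32.5% of all genes, with a median log2 difference of 0.08. None of them was called with a change of at least 1 on the log2 scale, so the examples here were chosen after their values were seen. Among 17 HSP90 partners 6 were higher, such as Ruvbl1, an assembly ATPase (0.48, SE 0.12, adjusted p = 0.0060), and 2 were lower. Among 19 HSP70 partners 3 were higher and 6 lower: St13, which steadies HSP70 on its client, rose (0.54, SE 0.13, adjusted p = 0.0049), while Bag4, another BAG-domain gene, fell by 0.93 (SE 0.10, adjusted p = 5.1e-05). Cct6a, a further CCT subunit, rose by 0.32 (SE 0.065, adjusted p = 0.0023). In mitochondria Grpel1, the exchange factor of mitochondrial HSP70, rose by 0.68 (SE 0.12, adjusted p = 0.0012), and Clpb, a disaggregase, was called lower (adjusted p = 0.00026) but was dim, detected in 2 human IAPP wells and 4 rat IAPP wells. The small heat shock protein gene Hspb6 fell by 0.94 (SE 0.085, adjusted p = 1.6e-05).

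For scale, 2 other protein quality sets were counted in the same fit, in which 23.8% of all genes were higher and 32.5% lower. Of 11 tested chaperones of the endoplasmic reticulum, 2 were higher and 1 was lower, with a median of -0.06. Of 28 tested proteasome subunits, 13 were higher and 3 lower, with a median of 0.20. Hsp90b1, the endoplasmic reticulum relative of Hsp90aa1, fell by 0.44 (adjusted p = 0.025). Differences between these sets and the cytosolic chaperones were not tested.

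**Figure D4:**
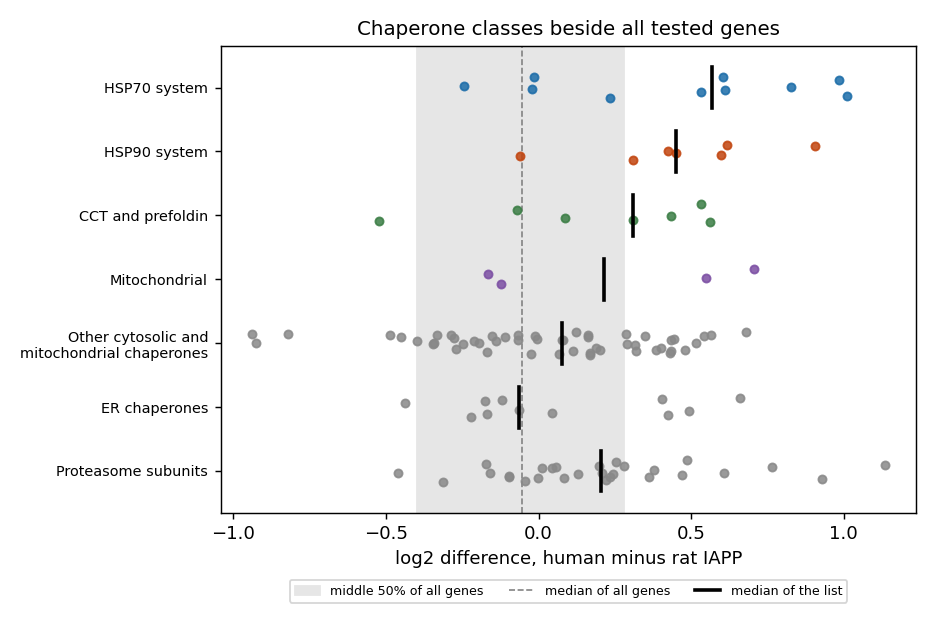
Each point is the log2 difference, human minus rat IAPP, of 1 gene, grouped by class, with the class median as a black bar. The grey band holds the middle 50% of all 7809 genes and the dashed line their median. The medians of the 4 chaperone classes run from 0.57 for the HSP70 system to 0.21 for the mitochondrial chaperones, beside 0.08 for other chaperones, -0.06 for the endoplasmic reticulum and 0.20 for the proteasome.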

How the data were processed

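RNA of 8 wells was labelled as biotinylated cRNA and measured on single-colour Illumina bead arrays, per the labels' protocols. The authors deposited an intensity per probe and array with no scaling between arrays and the background left in, and beside it a detection p-value, per the file headers. A second deposited table holds intensity values that the authors rescaled: within an array they are a straight-line function of the first table, linear and not centred, with medians of 352.6 to 367.7, by an unknown method. For scanner and summary software, the sources used here give nothing.

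In limma 3.58.1 (R 4.3.3), normexp correction used control beads inferred through the detection p-values, with 16 as offset; quantile normalisation and log2 came next. Of 25697 probes, the 11451 detected (p under 0.05) on 4 or more of the 8 arrays were tested. Platform symbols named 23978 probes, leaving 1719 unlisted. By gene number, 23962 probes were matched to RefSeq (GRCm38.p6) and took its current symbol, whether or not it differed. Each gene took the value of its brightest tested probe, by the mean over the wells of both groups. Second probes come from the same fit run over probes. The model (lmFit, eBayes) had no covariates, and p-values were adjusted by Benjamini-Hochberg, with 0.05 as threshold.

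The members and lists were chosen with earlier results of these data known. All members were named or counted; other chaperone genes were to be named if called with a log2 difference of at least 1. The 22 alternatives varied background, scaling, filter, variance model, block, array, probe and threshold. The steps were tested on simulated data. No 2 arrays were identical (smallest SD of their log2 difference 0.214). Precision is limited by how many arrays there are. Same-numbered wells did not vary together as a set, so no pairing by replicate number was seen, but so few wells cannot exclude one.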

Additional observations from a re-analysis of the deposited data

Results flagged for a closer look

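Of the 58 sets of 4 wells examined, 29 genes in 2 groups, 5 held a well far from the other 3, by Dixon's test at the 95% level; chance flags about 1 in 20. For Stip1 human IAPP well 4 was high, at 11.70 beside 11.64 (gap 0.985 of the range), and for Ahsa1 human IAPP well 1 was high, at 11.34 beside 11.25 (0.862). For Hspa1a human IAPP well 4 was low, at 7.25 beside 7.43 (0.849), for Cct5 human IAPP well 1, at 6.96 beside 7.29 (0.981), and for Trap1 human IAPP well 4, at 10.01 beside 10.14 (0.851). All 5 fall in the human IAPP group, in which the other 3 wells of these genes lay close together.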

How the results depend on the processing

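Over 22 alternatives, 573 of 635 member values kept direction and call. Among values that kept direction, the call was lost in 25 and gained in 18. The direction turned in 19, whether or not the call changed as well. Unless stated, the cause was not tested. Median scaling left 2 members called higher, beside 6.6% of all genes. It gave medians of 0.087 for the members, 0.14 for HSP70, 0.064 for HSP90, 0.14 for CCT and -0.076 for the mitochondrial class, and turned Bag3 (-0.041), Ptges3 (-0.10) and Tcp1 (-0.17). Higher genes made up 42.3% of calls, against 14.1% under median scaling and 53.5% with the authors' rescaled signals. Those signals gave 1 member lower, medians of 0.32 (members), 0.35 (HSP70), 0.32 (HSP90) and 0.41 (mitochondrial), and turned Hspa8 (0.37), Dnajb1 (0.16), Bag1 (0.055) and Fkbp4 (0.032). Without background correction the medians were 0.24 (members), 0.25 (HSP70), 0.32 (HSP90) and 0.084 (CCT), and an offset of 50 gave 0.21 for CCT. Cyclic loess gave 1 lower and turned Hspa8 (0.020) and Dnajb1 (0.050). With probes detected on at least 1 array, HSP70 was at 0.38 and CCT at 0.20; with no filter these were 0.38 and 0.20, the members at 0.31, with 1 lower. The mean over probes gave 0.30 for HSP70, and a threshold of 0.01 left 1 lower. Against rat IAPP well 4 alone, chosen after seeing the data, a single well that is assumed to vary like the human IAPP wells, HSP90 was at 0.56 and the mitochondrial class at 0.43, and Hspa8 (0.042), Dnajb1 (0.013), Cct5 (0.60), Hspe1 (0.22) and Hsf2 (0.35) turned. Leaving out single wells gave medians of 0.35 to 0.50 (members), 0.37 to 0.61 (HSP70), 0.35 to 0.56 (HSP90), 0.20 to 0.47 (CCT) and 0.20 to 0.26 (mitochondrial), 15 to 18 members higher, 2 to 3 lower and 3852 to 4680 genes called. Direction turned in some of these for Cct5 (-0.33 to 0.075; human IAPP well 1 or rat IAPP well 2 left out), Hsf2 (-0.27 to 0.045; human IAPP well 2), Dnajb1 (-0.034 to 0.0048; human IAPP well 3) and Dnajb4 (-0.28 to 1.23; human IAPP well 3). With the replicate number as a block, 4158 genes were called, 16 members higher and 2 lower; 15 of the 16 were the same genes, as Bag3 was lost and Cdc37 gained. Same-numbered wells correlated at -0.11, -0.01, 0.17 and -0.02, so no pairing by number was seen, but so few wells cannot exclude one. Dim probes near background limit Dnajb4, Cct5, Cct7, Cdc37, Hsf2, Hspa1a and Hsp90aa1.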
